A study of Rattus norvegicus with 9 samples.

Results

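Kupffer cells, the macrophages that live in the sinusoids of the liver, were followed through 9 genes by which they are commonly recognised: Clec4f, Marco, Cd163, Vsig4, Cd5l, Timd4, Csf1r, Adgre1 and Mrc1. The genes were taken by symbol from an expression array table of rat liver, in which 6 of the 9 have a probe set, a group of short oligonucleotides that reads 1 transcript. These 6 are read by 7 of the 31042 probe sets tested and stand among 14377 genes that a probe set names alone, and Adgre1 appears in the table under its older symbol Emr1. No probe set carried the names of Marco, Vsig4 or Timd4, which were not analysed here. All 6 genes were called present on all 9 arrays, so no filter on low signal removed any of them. Clec4f, the receptor most restricted to Kupffer cells, was thus detected in every liver.

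Kupffer cells arise from fetal precursors, renew themselves in the healthy liver and clear bacteria, aged red cells and modified lipoproteins from portal blood through scavenger and lectin receptors. In liver injury part of this resident population can be lost, while monocytes from the blood enter the tissue and become macrophages that share general macrophage genes but take on the resident receptors only slowly. Csf1r carries the survival signal that both kinds of macrophage need, whereas Clec4f and Timd4 mark the resident cell more narrowly.

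The livers came from male Sprague-Dawley rats, 3 in each group and 1 array per rat. Vehicle rats, numbered 3, 4 and 5, received neither CCl4 nor rottlerin. CCl4 rats, numbered 1, 2 and 3, were injected into the peritoneum with a 1:1 mix of CCl4 and olive oil, a toxic model of fibrosis. Each injection was 2 mL/kg body weight, given 2 times a week over 8 weeks. CCl4+Rot rats, numbered 4, 5 and 6, had the same CCl4 course and, starting 2 weeks into it, rottlerin at 2.5 mg/kg, which the study used as an activator of BK channels, the large-conductance potassium channels opened by calcium. RNA of the whole liver was measured, so fewer Kupffer cells and less RNA of a gene per cell cannot be told apart in any value below. Values are log2 signals, on which 1 unit is a doubling, scaled to a common trimmed mean of 500 per array, and levels of different genes cannot be set against each other on this scale.

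The arrays were alike in the median of the 11231 probe sets present on all 9 of them, which lay between 9.51 and 9.58. CCl4 replicate 3 stood apart, with 12714 probe sets called present against 15550 to 16849 on the others and a mean of 14.28 over 10 hepatocyte genes against 14.63 to 14.84. Vehicle replicate 3 had the highest level among the vehicle arrays of S100a9, a granule protein of neutrophils, at 9.62 against 7.22 and 7.24. Results were therefore also computed without these 2 arrays together, an alternative chosen after seeing the data.

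None of the 6 genes was called in any of the 3 comparisons by limma, for which a call needed both a 1.5-fold difference and an adjusted p under 0.05. Between CCl4 and vehicle limma called 0 of the 6, where 0% of all probe sets were called. Between CCl4+Rot and CCl4 it called 0 of the 6, where 0.00322% of all probe sets were called, and between CCl4+Rot and vehicle 0 of the 6, where 0.0258% were. At an unadjusted limma p below 0.05 the counts were 0, 1 (Clec4f) and 2 (Cd5l and Csf1r) of 6, and the shares of the 7058 genes present on all 9 arrays that reached it were 14.0%, 3.68% and 9.99% in the same order. A limma fit with robust estimation called 0 of the 6 in each comparison, where it called 1.12%, 0.00322% and 0.776% of all probe sets. The methods' t-test, unadjusted and at 1.5-fold, called 0, 0 and 1 of the 6, the last being Csf1r, where it called 5.71%, 2.74% and 6.85% of all probe sets. The differences below are accordingly given as values with their intervals.

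**Figure D1:**
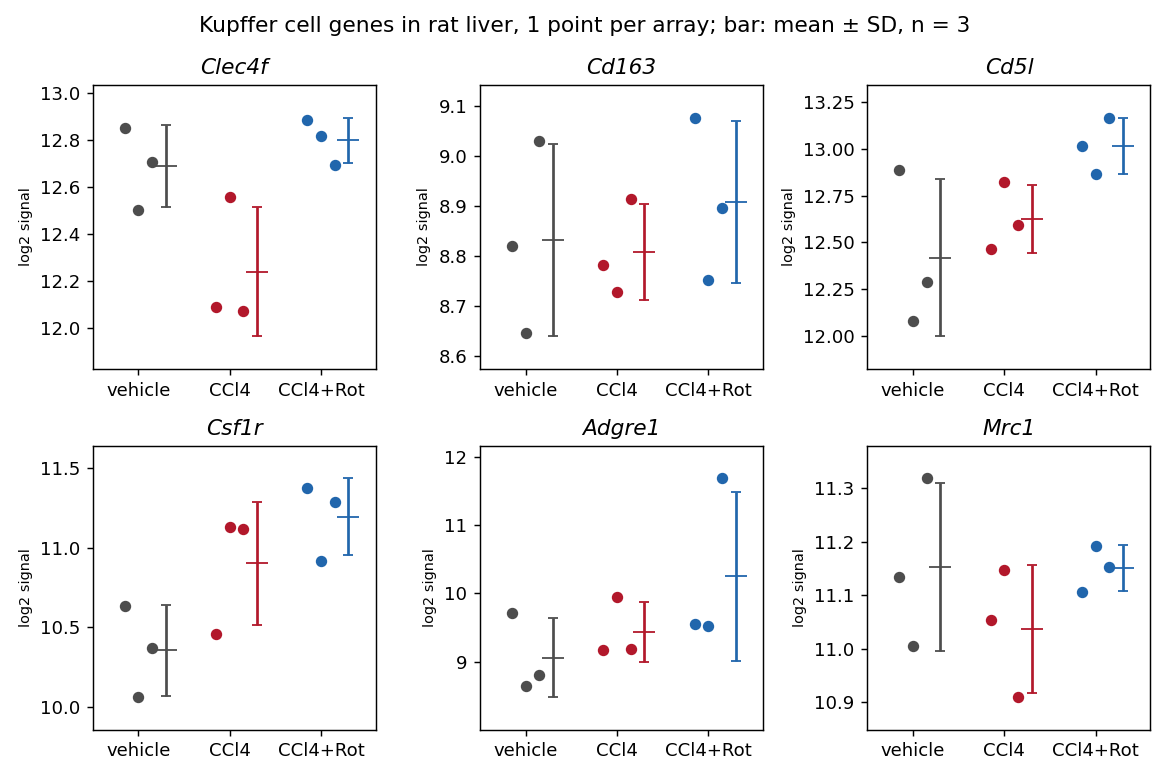
Log2 signal (y axis, own scale in each panel) of 6 Kupffer cell genes on each of the 9 arrays, by group (x axis), with points for single rats and bars for the mean ± SD of 3. Clec4f lies lowest with CCl4, Csf1r and Cd5l lie highest with CCl4+Rot, and 1 CCl4+Rot array carries the high mean of Adgre1.

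Clec4f, a C-type lectin receptor for galactose-bearing glycans that is used as the most specific Kupffer cell marker of rodents, had log2 signals of 12.85, 12.50 and 12.71 in the vehicle rats, 12.09, 12.56 and 12.07 in the CCl4 rats, and 12.88, 12.82 and 12.69 in the CCl4+Rot rats. The group means ± SD were 12.69 ± 0.175, 12.24 ± 0.274 and 12.80 ± 0.0965 (n = 3 each). Of the CCl4 rats 2 lay below every other liver, and CCl4 replicate 2 lay just above vehicle replicate 4, so those groups overlapped. The difference of CCl4 from vehicle was -0.45 on the log2 scale (SE 0.194, 95% interval -0.90 to 0.01, limma adjusted p = 0.409). All 3 CCl4+Rot rats lay above all 3 CCl4 rats, with a difference of 0.56, or 1.47-fold (SE 0.194, 95% interval 0.11 to 1.01, limma adjusted p = 0.724). Against vehicle the CCl4+Rot rats differed by 0.11 in log2, with an interval from -0.34 to 0.56. Leaving out single arrays kept the CCl4+Rot minus CCl4 difference between 0.47 and 0.72. Of the 6 members Clec4f had the lowest CCl4 minus vehicle value, and both comparisons use the same 3 CCl4 arrays.

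Cd5l, a secreted scavenger protein of tissue macrophages that supports their survival, had log2 signals of 12.89, 12.08 and 12.29 with vehicle, 12.47, 12.82 and 12.59 with CCl4, and 13.02, 12.86 and 13.17 with CCl4+Rot. Every CCl4+Rot rat lay above every CCl4 rat, while vehicle replicate 3 reached into the CCl4+Rot range. The log2 difference of CCl4+Rot from CCl4 was 0.39 (SE 0.242, 95% interval -0.17 to 0.95, limma adjusted p = 0.765). From vehicle it was 0.60, with an interval of 0.03 to 1.16 and a limma adjusted p of 0.567. Without vehicle replicate 3 this last value was 0.83. A second, dimmer Cd5l probe set read 7.98, 7.20 and 7.80 with vehicle, 7.52, 8.20 and 8.83 with CCl4, and 8.47, 8.42 and 8.71 with CCl4+Rot. On it the CCl4+Rot rats lay above all vehicle rats, by 0.87, and overlapped the CCl4 rats, so the probe sets placed the separation in different comparisons.

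Both Clec4f and Cd5l had CCl4+Rot arrays wholly above the CCl4 arrays, 2 of the 6 genes, where 8.13% of all genes present on all 9 arrays did so. The 250 bases before their transcription starts are shown here because they are the members that separated the groups in that comparison, as RefSeq gives them on GRCr8. The Clec4f stretch lies at chr4:117696408-117696657 on the minus strand, and its capitals mark a stretch of 54 bases present in 2 copies, directly one after the other. The Cd5l stretch lies at chr2:175088665-175088914 on the plus strand, and its capitals mark a match, on either strand, to the short motif GAGGAA, a core read by PU.1 and other ETS factors.
Clec4f: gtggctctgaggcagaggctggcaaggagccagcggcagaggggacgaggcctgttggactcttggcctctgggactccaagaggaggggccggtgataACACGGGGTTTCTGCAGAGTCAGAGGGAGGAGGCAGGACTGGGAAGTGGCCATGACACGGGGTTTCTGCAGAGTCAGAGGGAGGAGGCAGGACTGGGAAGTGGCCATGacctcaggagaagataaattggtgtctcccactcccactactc
Cd5l: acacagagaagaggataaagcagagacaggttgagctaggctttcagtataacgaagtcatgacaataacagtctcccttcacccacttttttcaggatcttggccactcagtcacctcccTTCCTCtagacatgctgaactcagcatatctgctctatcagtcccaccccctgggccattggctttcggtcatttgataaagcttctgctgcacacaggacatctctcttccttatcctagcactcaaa
An exact direct repeat of at least 54 bases occurred in 81 of 33469 such stretches of the rat genome table, or 0.242%. Clec4f held no match of GAGGAA and Cd5l held 1, where 23.3% of all the stretches held at least 1. Among the other members Csf1r and Mrc1 held 2 matches each, Adgre1 held 1 and Cd163 held 0. For Csf1r, Adgre1 and Cd163 another transcript start lies further upstream, so their stretches do not precede the outermost start of the gene. A match to letters is a description of the sequence and no evidence of binding.

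Csf1r, the receptor for the macrophage growth factors CSF1 and IL-34, had log2 signals of 10.63, 10.06 and 10.37 with vehicle, 10.46, 11.13 and 11.12 with CCl4, and 11.37, 10.92 and 11.29 with CCl4+Rot. The CCl4+Rot rats lay above every vehicle rat, and CCl4 replicate 1 lay within the vehicle range. The CCl4+Rot minus vehicle difference was 0.84 in log2, or 1.79-fold (SE 0.262, 95% interval 0.23 to 1.45, limma adjusted p = 0.414, 0.0922 with robust estimation). It ran from 0.69 to 0.98 when single arrays were left out. The CCl4 minus vehicle difference was 0.55 (interval -0.06 to 1.16), and that of CCl4+Rot from CCl4 was 0.29 (interval -0.32 to 0.90), or 0.07 without CCl4 replicate 1. Csf1r was 1 of 6 members whose CCl4+Rot arrays all exceeded the vehicle arrays, where 16.8% of all genes present on all 9 arrays did so.

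Adgre1, which encodes an adhesion G protein-coupled receptor used as a surface marker of mature rodent macrophages, had log2 signals of 9.72, 8.65 and 8.81 with vehicle, 9.18, 9.94 and 9.19 with CCl4, and 9.55, 9.52 and 11.68 with CCl4+Rot. CCl4+Rot replicate 6 lay far above the other 8 livers, and the 3 groups overlapped. The log2 difference of CCl4+Rot from CCl4 was 0.81 (SE 0.618, interval -0.63 to 2.25) and that from vehicle was 1.19 (interval -0.25 to 2.63). Without CCl4+Rot replicate 6 these values were 0.10 and 0.47, so the mean of Adgre1 in the rottlerin group rested on 1 rat. No other member was raised in that liver by a like amount: its Clec4f signal, 12.69, was the lowest of the CCl4+Rot group.

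Cd163, the haptoglobin-hemoglobin scavenger receptor, and Mrc1, the mannose receptor that sinusoidal endothelium also carries, varied least. Cd163 read 8.82, 8.65 and 9.03 with vehicle, 8.78, 8.73 and 8.91 with CCl4, and 9.08, 8.75 and 8.89 with CCl4+Rot in log2 signal. Mrc1 read 11.13, 11.01 and 11.32, then 11.05, 11.15 and 10.91, then 11.11, 11.19 and 11.15 in the same order. All 3 groups overlapped for both genes. For CCl4 minus vehicle the 95% limma intervals were -0.43 to 0.38 for Cd163 and -0.48 to 0.25 for Mrc1 in log2, and for CCl4+Rot minus CCl4 they were -0.30 to 0.51 and -0.25 to 0.48.

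**Figure D2:**
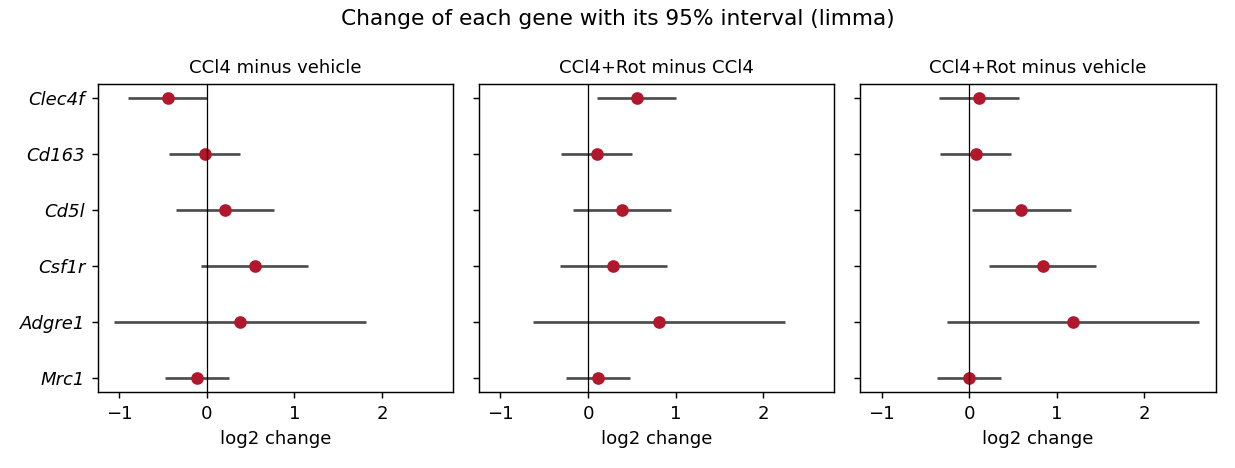
Log2 change (x axis) of each of the 6 genes in 3 comparisons, with points for the limma estimate from 3 arrays against 3 and lines for its 95% interval. The intervals leave out 0 for Clec4f in CCl4+Rot minus CCl4 and for Cd5l and Csf1r in CCl4+Rot minus vehicle, before any adjustment.

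Across the 6 genes the median log2 change was 0.09 from vehicle to CCl4, with 3 values above 0 and 3 below. The corresponding median over genes present on all arrays was -0.01. No member separated the CCl4 from the vehicle arrays in either direction, where 26.3% of those genes did. The median was 0.34 for CCl4+Rot minus CCl4, with all 6 values above 0, and 0.35 for CCl4+Rot minus vehicle, with 5 above 0, beside 0.03 and 0.01 for the genes present on all 9 arrays. These medians turned on single rats. That of CCl4 minus vehicle was -0.04 without vehicle replicate 4 and 0.21 without vehicle replicate 3, that of CCl4+Rot minus CCl4 was 0.18 without CCl4+Rot replicate 6 and 0.22 without CCl4 replicate 1, and that of CCl4+Rot minus vehicle was 0.22 without vehicle replicate 4. The mean signal of the 6 genes was 11.01, 10.49 and 10.75 with vehicle, 10.67, 11.05 and 10.80 with CCl4, and 11.17, 11.01 and 11.48 with CCl4+Rot, so CCl4+Rot replicate 5 lay below CCl4 replicate 2. Centring each array on its median moved all genes, by -0.37 between CCl4 and vehicle and by 0.28 between CCl4+Rot and CCl4 for genes present on all 9 arrays. Under that centring the members' medians were -0.27 and 0.59, which lie above those shifts.

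The resident markers were then set beside genes that macrophages of any origin express, a list of 9 with Cd68, Aif1, Tyrobp, Fcer1g, Lyz2, Ctss, Cd14, Csf2ra and Ptprc. All 9 had a CCl4 mean above the vehicle mean, with a median log2 difference of 0.68 beside 0.03 for all measured genes. Limma called 0 of them after adjustment and 5 reached an unadjusted p below 0.05, while robust estimation called 2. Of all genes present on all 9 arrays 14.0% reached that unadjusted p, and robust estimation called 1.12% of all probe sets. Lyz2, the lysozyme of macrophages and neutrophils, had log2 signals of 12.12, 12.11 and 12.17 with vehicle, 13.78, 13.28 and 13.01 with CCl4 and 13.42, 13.24 and 13.46 with CCl4+Rot, and lay 1.22 higher with CCl4 than with vehicle (limma adjusted p = 0.00813 with robust estimation, 0.185 without). Csf2ra, the receptor chain for GM-CSF, lay 0.93 higher (0.0282 and 0.186). Between CCl4+Rot and CCl4 the list's median was 0.15 and no gene reached an unadjusted p below 0.05.

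Genes that mark recruited or scar-associated macrophages had larger differences. Gpnmb, a lysosomal glycoprotein of lipid-handling macrophages, lay at 10.36, 9.32 and 8.44 with vehicle and at 12.71, 13.00 and 12.62 with CCl4 in log2 signal, a difference of 3.40 (limma adjusted p = 0.00872 with robust estimation, 0.156 without). Lgals3, the galectin of activated macrophages, lay 1.93 higher (0.00343 and 0.168). Spp1, osteopontin, which injured bile duct cells also make, was called present on no vehicle array and on all CCl4 arrays, at least 32.0-fold higher, and its CCl4+Rot signals of 10.46, 8.11 and 8.74 overlapped the CCl4 signals of 12.11, 9.90 and 11.58. Of the 12 genes listed, 6 had a measured change with CCl4, all 6 above 0 with a median of 1.35, where limma called 0, 4 reached an unadjusted p below 0.05 and robust estimation called 3, beside the same 14.0% and 1.12%. Itgam and Trem2 were called present on no array.

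To follow each resident gene relative to the macrophage genes of the same liver, the mean of those 9 genes was subtracted from it on every array, a measure chosen after seeing the values. For Clec4f the difference was 2.18, 2.40 and 2.41 with vehicle, 1.17, 1.43 and 1.13 with CCl4, and 1.79, 1.72 and 1.30 with CCl4+Rot in log2. The CCl4 arrays lay 1.08 below the vehicle arrays on average without overlap (exact permutation test, two-sided, p = 0.1, the smallest that 3 against 3 allows). The CCl4+Rot arrays lay 0.36 above the CCl4 arrays with overlap (exact permutation p = 0.2) and 0.72 below the vehicle arrays without overlap, as did 81.3% of all genes present on all 9 arrays on this measure. Cd163, Cd5l and Mrc1 also lay lower without overlap with CCl4 than with vehicle, by 0.66, 0.43 and 0.75, whereas Csf1r (-0.09) and Adgre1 (-0.26) overlapped. That is 4 of 6 genes, and 57% of all genes present on all 9 arrays lay lower on the same measure, the subtracted genes having higher means with CCl4, so the count is not particular to these genes.

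**Figure D3:**
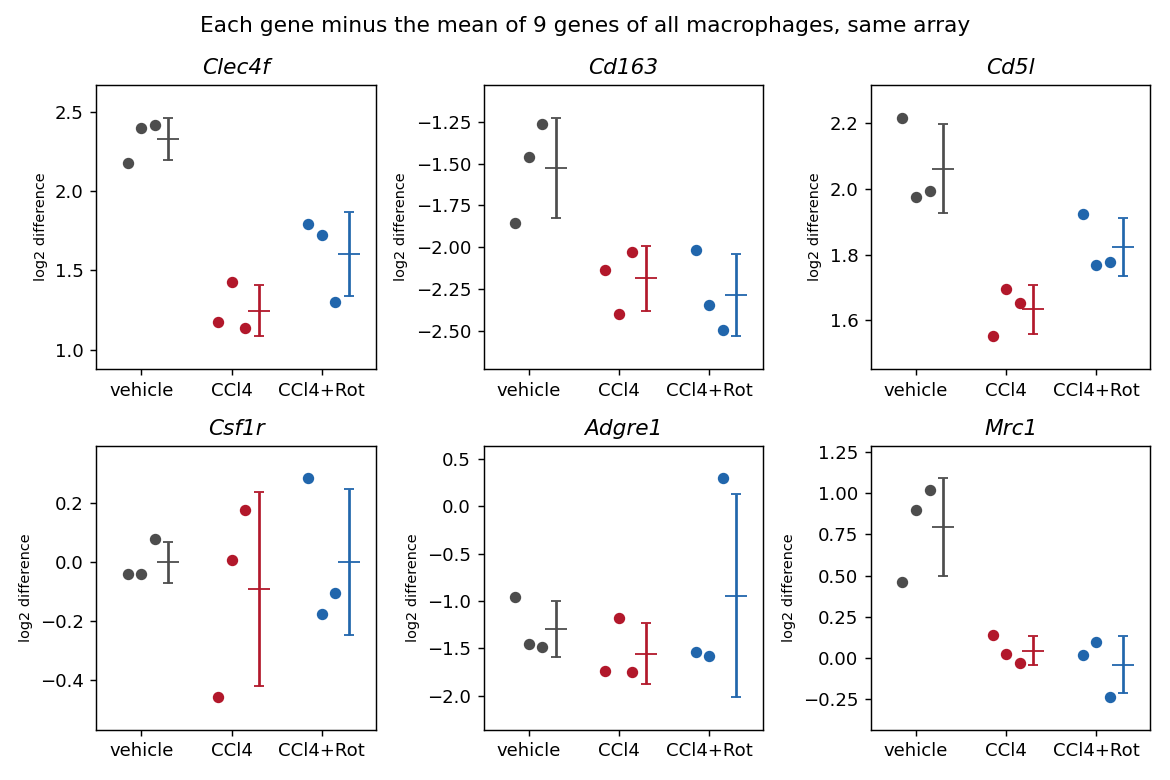
Log2 signal of each Kupffer cell gene minus the mean log2 signal of 9 genes of all macrophages on the same array (y axis, own scale in each panel), by group (x axis), with points for single rats and bars for the mean ± SD of 3. Clec4f, Cd163, Cd5l and Mrc1 lie lower in all CCl4 rats than in all vehicle rats, and Csf1r stays around 0 in every group.

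Clec4f was also separated between CCl4 and vehicle with 4 other baselines, which were chosen after the values were seen. The difference was -0.79 for the median of the list, -1.01 without Lyz2 and -1.01 without Lyz2, Csf2ra and Cd14. Against the mean of the complement genes C1qa, C1qb and C1qc it was -0.41. The first 3 baselines were drawn from the same list, whose genes had higher means with CCl4. The share of all genes separated was not computed for these baselines, so the separation is not shown to be particular to Clec4f. Cd5l was separated with 3 of these 4, all but the complement genes, and Cd163 and Mrc1 with only 1, the mean without Lyz2. Against the complement genes Csf1r separated the other way, 0.58 higher with CCl4 than with vehicle and 0.52 higher with CCl4+Rot than with vehicle, both without overlap, and Cd5l lay 0.28 higher with CCl4+Rot than with vehicle. The complement genes are themselves abundant in Kupffer cells, and their log2 changes with CCl4 were -0.10 for C1qa, 0.10 for C1qb and -0.11 for C1qc.

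Transcription factors of Kupffer cells did not move as a block. Of 9 listed, 7 were measured, and limma and robust estimation called 0 of them in each comparison. Unadjusted limma p lay below 0.05 for 2, 1 and 2 of the 7. Of all genes present on all 9 arrays 14.0%, 3.68% and 9.99% reached it in the same order. The median log2 change of the 7 was 0.34 with CCl4 and 0.05 between CCl4+Rot and CCl4. Id1, an inhibitor of basic helix-loop-helix factors that endothelium also expresses, lay 0.85 higher with CCl4 than with vehicle, while Nr1h3, the liver X receptor alpha gene that hepatocytes share, differed by -0.13. Spic, the factor of iron-recycling macrophages, was called present on 5 of 9 arrays and differed by 0.99 with CCl4, with overlap.

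Signals that sustain Kupffer cells were measured for 3 of 6 listed genes. Dll4, the Notch ligand of sinusoidal endothelium, read 7.88, 8.02 and 7.36 with vehicle, 7.47, 6.66 and 6.69 with CCl4 and 7.26, 7.46 and 7.13 with CCl4+Rot in log2 signal, a difference of -0.81 with CCl4 that overlapped (limma adjusted p = 0.331). Csf1, a ligand of Csf1r, differed by 0.33 with CCl4 and by -0.39 between CCl4+Rot and CCl4, and Il34, the other ligand, by -0.16 and -0.05, all with overlap. Of 9 measured genes of the sinusoidal endothelium, which lies against the Kupffer cells and shares Mrc1 with them, 5 lay above 0 and 4 below with CCl4, with a median log2 change of 0.05. The scavenger receptor Stab2 lay 0.26 higher, the endonuclease Dnase1l3 lay 0.45 lower and the VEGF receptor Kdr 0.34 lower with CCl4, none of them called.

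Clearance and complement genes of resident macrophages were measured for 12 of 15 listed. Their median log2 changes were -0.04 with CCl4 and 0.21 between CCl4+Rot and CCl4, beside 0.03 and 0.01 for all measured genes. Between CCl4+Rot and CCl4 11 of 12 lay above 0 and none reached an unadjusted limma p below 0.05. In that comparison all 10 hepatocyte genes and 8 of 9 sinusoidal endothelial genes also lay above 0, against 4 of 9 recruited macrophage genes. Folr2, the folate receptor beta of resident macrophages, read 9.33, 8.73 and 8.44 with vehicle, 9.72, 10.11 and 9.74 with CCl4 and 9.97, 9.79 and 10.10 with CCl4+Rot. It lay 1.02 higher with CCl4 than with vehicle (limma adjusted p = 0.0401 with robust estimation, 0.241 without) and differed by 0.10 between CCl4+Rot and CCl4. Hmox1, which breaks down heme, lay 0.97 higher with CCl4, with adjusted p of 0.0532 by robust limma. Axl, a receptor for dying cells, lay 0.45 higher with CCl4+Rot than with CCl4 without overlap, and Fcgr1a, the high-affinity receptor for IgG, 0.48 higher without overlap. These were 2 of the 12 genes, where 8.13% of all genes present on all 9 arrays lay higher without overlap.

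**Figure D4:**
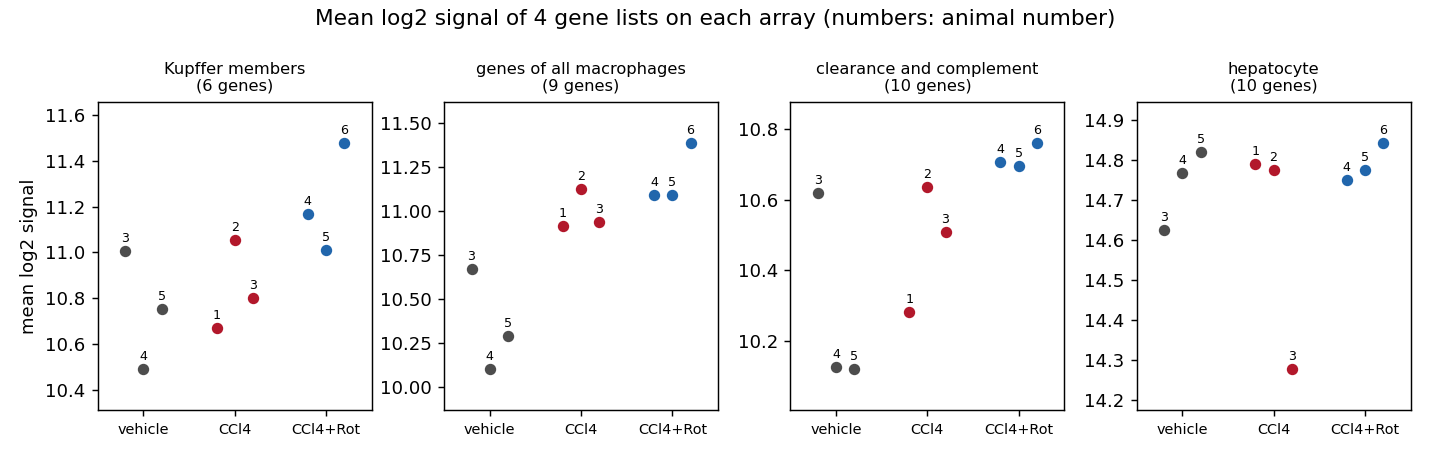
Mean log2 signal (y axis, own scale in each panel) of 4 gene lists on each array, by group (x axis), over the genes of each list present on all 9 arrays, with each point a rat labelled by its number. Genes of all macrophages lie above the vehicle arrays on every CCl4 and CCl4+Rot array, the 6 Kupffer cell genes overlap between vehicle and CCl4, and CCl4 replicate 3 lies low in the hepatocyte list.

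Markers of other cells differed in some of the same comparisons, though limma called none of those named here. The neutrophil genes S100a8 and S100a9 lay higher on all CCl4+Rot arrays than on all CCl4 arrays, the comparison in which Clec4f and Cd5l were separated. Of all genes present on all 9 arrays 8.13% did so. S100a9 read 8.61, 9.36 and 8.77 with CCl4 and 9.76, 10.48 and 10.40 with CCl4+Rot (limma adjusted p = 0.758). These were the 2 genes measured in that comparison of 5 neutrophil genes listed. Csf3r, called present on 2 arrays, overlapped, and Cxcr2 was called present on no array. All 10 hepatocyte genes had higher means with CCl4+Rot than with CCl4, by a median of 0.18, and CCl4 replicate 3 had the lowest hepatocyte mean of all arrays. Clec9a, a receptor of cross-presenting dendritic cells, read 8.05, 7.36 and 7.96 with vehicle, 6.36, 6.72 and 5.02 with CCl4 and 7.05, 8.09 and 7.19 with CCl4+Rot. Of the other lists, the median log2 change with CCl4 was 0.83 over 7 measured stellate cell and myofibroblast genes, 0.51 over 2 of T and NK cells, 0.54 over 2 of B and plasma cells and 0.34 over 2 of cholangiocytes. The part of these cells in the Kupffer gene values was not tested. Without CCl4 replicate 3 the Clec4f difference between CCl4+Rot and CCl4 was 0.47, and without both CCl4 replicate 3 and vehicle replicate 3 the members' medians were 0.20, 0.39 and 0.51 in the order of the comparisons above.

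Over the 9 arrays the members were not interchangeable. Pearson's r between pairs ran from -0.0485 for Csf1r and Mrc1 to 0.861 for Cd5l and Csf1r, and Clec4f was closest to Mrc1 (0.673) and farthest from Csf1r (0.192), as a description over 9 arrays of 3 groups. The 5 genes most like the mean standardised signal of the 6 members, out of 7052 candidates present on all 9 arrays with a median r of 0.0477, were Ccl6 (0.976), Rnf145 (0.959), Masp1 (0.917), Stk17b (0.909) and Coro1a (0.908). Ccl6 is a chemokine of myeloid cells and Coro1a an actin-binding protein of leukocytes, and Masp1 is a protease of the lectin pathway of complement.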

How the data were processed

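Affymetrix rat arrays were hybridised with liver RNA, 1 array for each of 9 rats, which the labels number. The authors deposited log2 signals and detection calls for 31099 probe sets, and the submitters' processing notes name MAS5 and the affy package. The antilogs have a trimmed mean of 500 on each array (2% trimmed at each end), and no genome build is given in the sources used here. The table's values were used as they are. After 57 control probe sets were left out, limma 3.58.1 (R 4.3.3) was fitted to 31042 probe sets with 3 group means and Benjamini-Hochberg adjustment over all of them. Each gene was read by its brightest probe set. A change was counted as measured where the gene was called present on at least 1 array of both groups, and in only 1 of them a bound was computed by raising the other signals to the lowest present signal of their array.

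The members, the gene lists and the rule for named genes were chosen with earlier results of these data known. Named genes were the 9 members, the 3 genes with the smallest limma p of each list in CCl4 minus vehicle and in CCl4+Rot minus CCl4 among genes present on at least 3 arrays, and the 5 most alike genes. Nr1h3, C1qb, C1qc, Itgam, Trem2, Csf3r and Cxcr2 were added after their values were seen. 1 gene that fell under the rule was left out of the text. Alternatives were quantile normalization, array-median centring, robust limma (statmod 1.5.0), the methods' t-test, filters, averaging of a gene's probe sets, only the compared groups, a replicate block and single arrays left out. The comparisons share arrays, and the number of arrays limits the precision. The replicate numbers were checked as a pairing and do not pair the animals. The limma fit was tested on simulated data.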

Additional observations from a re-analysis of the deposited data

How the results depend on the processing

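The count of members called stayed at 0 in all 3 comparisons under every alternative run, single arrays left out included (0 to 0), except that the methods' t-test without adjustment called 1, Csf1r, between CCl4+Rot and vehicle. Leaving out single arrays gave member medians of -0.04 to 0.21 for CCl4 minus vehicle, 0.18 to 0.45 for CCl4+Rot minus CCl4 and 0.22 to 0.51 for CCl4+Rot minus vehicle. Centring on the array median gave -0.27 and 0.59 for the first 2, where CCl4 replicate 3, with few present calls, has a high median over all probe sets. Of 342 values of single members under the alternatives, 10 changed sign. For Cd163 these were 0.016 without CCl4 replicate 2 and 0.075 without vehicle replicate 5 (CCl4 minus vehicle, range over arrays left out -0.12 to 0.075), and -0.035 with centring, -0.0079 without CCl4+Rot replicate 4 and -0.016 without vehicle replicate 4 (CCl4+Rot minus vehicle, range -0.016 to 0.18). For Mrc1 in CCl4+Rot minus vehicle they were 0.040 with quantile normalization, 0.020 without CCl4+Rot replicate 4 and 0.080 without vehicle replicate 5 (range -0.076 to 0.080). Centring also turned Cd5l from 0.21 to -0.15 in CCl4 minus vehicle and Clec4f to -0.0006 in CCl4+Rot minus vehicle. The cause was not tested. The replicate block gave medians of 0.09, 0.33 and 0.35 and changed no call. Same-numbered animals did not deviate together (correlations of -0.0047, -0.013 and -0.090, consensus -0.033), and CCl4 and CCl4+Rot share no number. With 3 arrays a group, the 95% intervals of Adgre1 span more than 2 log2 units, and those of Cd163 and Mrc1 still hold changes of 0.25 either way.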
